A study of Homo sapiens with 6 samples.

Results

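LX-2 is an immortalized human hepatic stellate cell line, a single established line that stands in culture for the liver cells that turn into scar-forming myofibroblasts. The genes described here are 10 of the 27830 in the deposited table, taken by symbol: the smooth muscle actins ACTA2 and ACTG2, the actin-binding proteins TAGLN, CNN1, CALD1 and LMOD1, the myosin genes MYH11 and MYL9, the myosin light chain kinase MYLK, and SMTN. RNA sequencing was done on 3 libraries of cells given 10 ng/ml transforming growth factor beta 1 (TGF-β1) for 24 h and on 3 libraries of control cells that received no TGF-β1. Per the labels, cells were grown with 10% fetal bovine serum, TGF-β1 was given in serum-free medium, and no separate medium is stated for the controls, so an effect of serum and one of TGF-β1 cannot be told apart here. The design text names α-smooth muscle actin, the product of ACTA2, as the readout by which activation was checked with PCR and western blot; those measurements were not analysed here.

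Smooth muscle contraction rests on filaments of actin and of type II myosin. Calcium bound to calmodulin activates myosin light chain kinase, which phosphorylates the regulatory light chain and switches the myosin on, while calponin and caldesmon bind the actin filament and restrain it. Stellate cells that become myofibroblasts are known for gaining α-smooth muscle actin and stress fibres, and the promoters of many of these genes are bound by serum response factor (SRF) at a short AT-rich element called the CArG box.

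Of the 10 genes, TAGLN was the only one that rose by the test across all genes, 3.11-fold. CALD1 was 2.24-fold and MYL9 1.35-fold higher in the TGF-β1 libraries and missed the threshold. Both passed it once a trend on base composition had been removed from each library. That alternative, chosen with earlier results known, called 3.08% of all genes, against 0.366% in the first test. The MYL9 call was lost there without TGF-β1 replicate 2 or control replicate 1. ACTA2, ACTG2, CNN1 and SMTN differed between the groups by at most 0.08 on the log2 scale. Total counts were 13866957 to 16454700 in the TGF-β1 libraries and 14118402 to 17694675 in the control libraries. The labels name no separate cultures behind the 3 libraries of a group. The p-values below therefore measure only how much these libraries vary, which may be technical variation.

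The labelled cell type was checked against lists of markers. Summed over the 12 stellate and fibroblast markers, levels were 2955 to 3353 CPM (counts scaled to the effective size of each library) in the TGF-β1 libraries and 2827 to 2999 CPM in the control libraries, nearly all of it COL1A1, VIM and COL3A1. Of the others on that list, PDGFRB had 660 to 898 counts and HAND2 187 to 283 counts per library. Lower were COL1A2 with 29 to 48 counts, GFAP with 23 to 44, PDGFRA with 6 to 12, LUM with 4 to 14 and DCN with 1 to 6. Of the vascular smooth muscle and pericyte markers, DES had 1 to 5 counts, PLN 0 to 2, MYH11 7 to 45 and each RGS5 entry at most 13 per library. Others of these markers were higher, with 833 to 1439 counts of NOTCH3, 226 to 574 of ABCC9 and 76 to 106 of KCNJ8. MYOCD, the SRF cofactor myocardin, had 117 to 241 counts. Among other cell types, the 4 hepatocyte markers in the table summed to 25.3 to 30.8 CPM with TGF-β1 and 23.0 to 31.5 CPM in controls, nearly all SERPINA1, with APOA1, APOB and CYP3A4 at 0 or 1 count. The 5 leukocyte markers summed to 16.9 to 19.2 CPM with TGF-β1 and 17.7 to 24.7 CPM in controls, and the 5 endothelial markers to 6.47 to 7.71 CPM with TGF-β1 and 5.91 to 7.14 CPM in controls. The 5 epithelial markers summed to 417 to 606 CPM with TGF-β1 and 541 to 685 CPM in controls, nearly all KRT8 and KRT18, and EPCAM had 0 or 1 count per library. The 8 vascular smooth muscle and pericyte markers, which include MYH11, summed to 98.0 to 110.2 CPM with TGF-β1 and 101 to 111 CPM in controls. LRAT, which makes the retinyl esters stored by quiescent stellate cells, had counts in 1 library only. In bulk RNA, fewer cells of a type and less RNA per cell cannot be told apart.

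The CArG boxes of the set are shown first because they are the element these genes are known to share. RefSeq promoter windows of GRCh38.p14, from 250 bases before to 50 bases after an annotated start, matched 7 of the 10 genes in 14 windows. Each was searched for the 10-base CArG box, written as CC, then only A or T, then GG. This pattern, though not each single box, reads the same on both strands. At least 1 box was found in 3 of the 14 windows, in ACTG2, MYLK and SMTN, and in 454 of all 35116 windows (1.29%). The stretches below run 5′ to 3′ on the strand of the gene, with the box in capitals and 10 bases on either side. That of ACTG2 lies at chr2:73892888-73892954 on the plus strand, MYLK at chr3:123620623-123620652 on the minus strand and SMTN at chr22:31084942-31084971 on the plus strand. FHL2, a LIM-domain cofactor of SRF outside the set whose values are given further on, is added from chr2:105438595-105438624 on the minus strand.
ACTG2: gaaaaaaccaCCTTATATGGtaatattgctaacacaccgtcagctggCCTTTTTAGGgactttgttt
MYLK: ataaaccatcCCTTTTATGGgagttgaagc
SMTN: cggggccgggCCATATAAGGaaaagctagg
FHL2: aatctggagaCCTTAAAAGGcacgtgggag
The boxes of ACTG2 begin 110 and 73 bases before the annotated start, that of MYLK 94 bases and that of SMTN 44 bases before it. All 3 starts lie inside the gene as GENCODE release 29 bounds it, since it places ACTG2 on chromosome 2 from 73892314 to 73919865, MYLK on chromosome 3 from 123610049 to 123884331 and SMTN on chromosome 22 from 31064105 to 31104757. On the minus strand, the MYLK start lies near the 3′ end of that gene, so it is not shown to be a start of the kinase forms. In the stretches printed, 30 of 30 bases of MYLK and 11 of 67 of ACTG2 lie in exons of that release, against 0 in SMTN and FHL2. FHL2 had a box in 3 of its 4 windows, and the stretch printed is 1 of 2 different ones. A match of letters is a description of the sequence. None of ACTG2, MYLK and SMTN passed the test for a difference with TGF-β1, and a window without the exact letters says nothing about SRF at that gene.

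**Figure D1:**
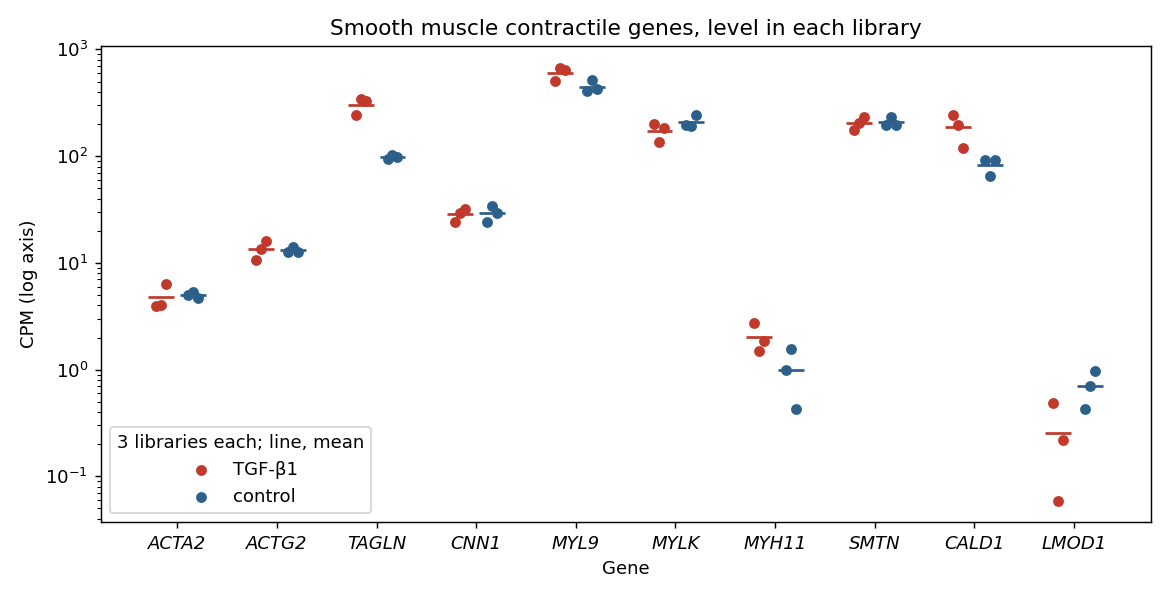
Level of each of the 10 genes in CPM on a log axis, 3 TGF-β1 libraries at left and 3 control libraries at right of each gene, with the mean as a line. TAGLN and CALD1 are the genes whose groups do not overlap; ACTA2, MYH11 and LMOD1 lie below 10 CPM in all 6 libraries.

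The actins, which build the thin filament, were tested first. ACTA2 (ENSG00000107796) had 65, 68 and 86 counts in TGF-β1 replicates 1 to 3, against 70, 92 and 77 counts in control replicates 1 to 3. This was 3.95, 4.03 and 6.33 CPM with TGF-β1 and 4.95, 5.36 and 4.69 CPM in controls, on library sizes scaled by TMM, so that 2 TGF-β1 libraries lay below the controls and 1 above them. TGF-β1 over control gave a log2 difference of -0.08 ± 0.24 (SE; 95% interval -0.59 to 0.44; edgeR adjusted p = 0.898). The gene covers chromosome 10 from 88935074 to 88991339 (GRCh38, minus strand). ACTA2-AS1 and FAS, on the plus strand, cover 30.1% of its exon bases. Reads on those bases cannot be told apart by gene, because the library kit does not mark strand. Whether such reads were counted or left out is not known from the processing notes.

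ACTG2 (ENSG00000163017), the γ-smooth muscle actin of enteric muscle, had 174, 226 and 219 counts with TGF-β1 and 180, 240 and 207 in controls. Its levels of 10.6, 13.4 and 16.1 CPM with TGF-β1 spanned those of the controls, 12.7, 14.0 and 12.6 CPM. Its log2 difference was 0.02 ± 0.19 (SE; 95% interval -0.40 to 0.45; edgeR adjusted p = 0.966). No exon base of ACTG2, on chromosome 2 from 73892314 to 73919865, overlaps another gene. Of its 50-base stretches 0.1% occur exactly in transcripts of other genes, so few reads of that length would be shared with another gene, although no source used here gives the read length.

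Per length, the smooth muscle actins were a small part of the actin RNA. In deposited FPKM, a read level scaled to gene length and library depth, ACTA2 averaged 1.6 ± 0.416 with TGF-β1 and 1.67 ± 0.0816 in controls, and ACTG2 averaged 3.52 ± 0.674 with TGF-β1 and 3.41 ± 0.13 in controls (SD, n = 3 each). The cytoplasmic actin ACTB averaged 1242 ± 168 FPKM with TGF-β1 and 1265 ± 25.2 in controls, and ACTG1 averaged 1131 ± 161 FPKM with TGF-β1 and 1453 ± 72.4 in controls (SD, n = 3 each). ACTA2 and ACTG2 together made up 0.207%, 0.199% and 0.238% of the FPKM of 5 actin genes in TGF-β1 replicates 1 to 3, against 0.181%, 0.191% and 0.188% in control replicates 1 to 3. The groups of this share did not overlap (exact permutation test, two-sided, p = 0.1, the smallest that 3 against 3 libraries allow). The size of the share depends on the deposited gene lengths, 2976 bases for ACTA2 and 3811 for ACTG2. Their longest transcripts have 1349 and 2064 bases, and those of the other actins were not compared. ACTG1, which the share divides by, had 3813, 4654 and 5223 CPM with TGF-β1, against 6026, 6264 and 5524 CPM in controls, with no overlap (edgeR log2 difference -0.38 ± 0.14 SE, adjusted p = 0.214).

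**Figure D2:**
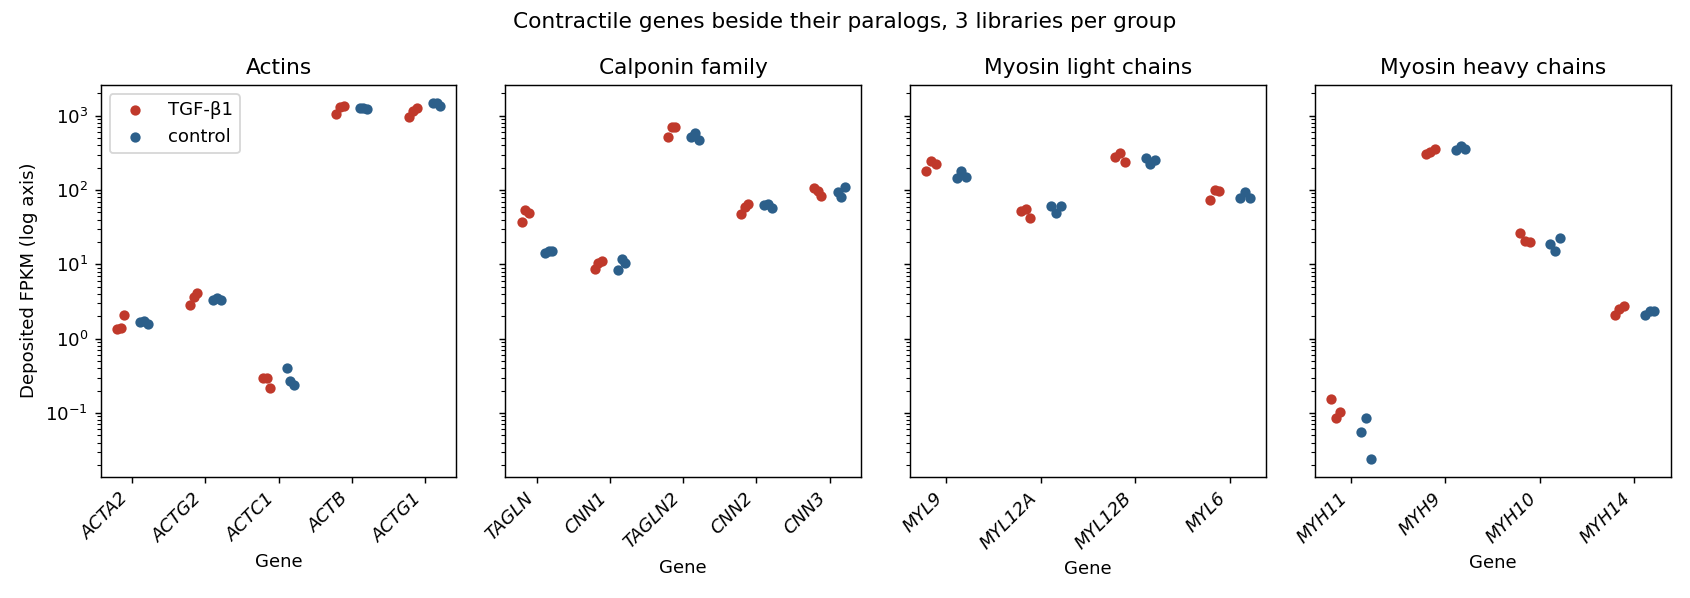
Deposited FPKM on a log axis for actins, the calponin family, myosin light chains and myosin heavy chains, 3 TGF-β1 libraries at left and 3 control libraries at right of each gene. ACTA2 and ACTG2 lie hundreds-fold below ACTB and ACTG1, MYH11 lies lowest of the genes plotted, and MYL9 is the smooth muscle gene nearest to the level of its paralogs.

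Among proteins that bind the actin filament, TAGLN encodes transgelin, also called SM22α, a calponin-family protein that bundles actin. TAGLN (ENSG00000149591) had 4004, 5739 and 4476 counts in TGF-β1 replicates 1 to 3, against 1325, 1749 and 1600 counts in control replicates 1 to 3. In CPM these were 243, 340.3 and 329 with TGF-β1 and 93.7, 102 and 97.5 in controls. The groups were far from overlapping, and within the TGF-β1 group replicate 1 was the lowest. The log2 difference of 1.64 ± 0.15 (SE), with a 95% interval of 1.32 to 1.96, passed the test (edgeR adjusted p = 0.000682). Of the 9 genes of the set with enough counts to be tested, 1 rose and 0 fell, against 0.366% of all 14463 genes called in either direction. At an unadjusted p under 0.05, 4 of the 9 were higher and 0 lower, against 15.6% of all genes in either direction, 11.1% higher and 4.49% lower. DESeq2 called 2 of the 9 higher and 0 lower, against 4.25% of all genes in either direction, 3.41% higher and 0.844% lower. More of all genes were thus higher than lower by both of these counts. The median log2 difference was 0.02 over the 9 genes and 0.01 over all genes tested.

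TAGLN was called in each of the 19 settings of processing that were run, with adjusted p up to 0.0172. It lies on chromosome 11 from 117199321 to 117204782 (GRCh38, plus strand), and 11.4% of its exon bases overlap PCSK7 on the other strand. Its deposited FPKM was 46.7 ± 8.17 with TGF-β1 and 14.8 ± 0.406 in controls (SD, n = 3 each). These values divide by a gene length of 6550 bases, which follows from the counts, whereas the exons of GENCODE release 29 cover 3917 bases. On that shorter length the FPKM would be 62.8, 89 and 82.4 in the TGF-β1 libraries and 24, 25.2 and 25 in the control libraries, which changes the level against other genes and leaves the fold change as it is.

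TAGLN2, the paralog found in most cell types, had 1154, 1547 and 1636 CPM with TGF-β1 and 1178, 1373 and 1077 CPM in controls, and these groups overlapped (edgeR log2 difference 0.26 ± 0.15 SE, adjusted p = 0.447). Within the pair, TAGLN took 6.78%, 7.06% and 6.5% of the FPKM in TGF-β1 replicates 1 to 3, against 2.67%, 2.5% and 3.03% in control replicates 1 to 3 (exact permutation p = 0.1, two-sided, the smallest possible). TAGLN thus remained the minor of the pair in all 6 libraries, on the deposited gene lengths.

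CNN1 (ENSG00000130176), calponin 1, inhibits the myosin ATPase on actin and is a marker of differentiated smooth muscle. It had 24.4, 29.4 and 32.2 CPM with TGF-β1, against 24.0, 34.2 and 29.4 CPM in controls, and the ranges lay over each other. Here the log2 difference was -0.03 ± 0.18 (SE; 95% interval -0.42 to 0.37; edgeR adjusted p = 0.957). CNN1, on chromosome 19 from 11538717 to 11550323, shares no exon base with another gene. Its share of the FPKM of the 3 calponins was 6.23% ± 0.847 with TGF-β1 and 6.11% ± 1.22 in controls (SD, n = 3 each; exact permutation p = 0.9, two-sided), and the more widely expressed CNN2 and CNN3 had log2 differences of -0.14 ± 0.14 (SE, edgeR adjusted p = 0.66) and -0.01 ± 0.14 (SE, edgeR adjusted p = 0.979). The 95% intervals of TAGLN and CNN1, genes of the same family, did not meet. Their difference in response was not tested.

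CALD1 (ENSG00000122786) encodes caldesmon, which holds actin and myosin apart until calcium rises. Gene-level counts do not separate its smooth muscle form from the shorter form of other cells. CALD1 had 4002, 3291 and 1635 counts in TGF-β1 replicates 1 to 3, against 1312, 1113 and 1514 counts in control replicates 1 to 3. In CPM these were 243, 195 and 120.3 with TGF-β1 and 92.8, 64.9 and 92.3 in controls. No TGF-β1 library reached down to a control library, but replicate 3 lay much nearer to the controls than replicate 1. The log2 difference of 1.16 ± 0.23 (SE), with a 95% interval of 0.65 to 1.67, missed the threshold (edgeR adjusted p = 0.0686). TAGLN and CALD1 were the 2 of 9 genes whose groups did not overlap with TGF-β1 higher, which held for 7.93% of all genes tested. No member had all TGF-β1 libraries below the controls, which held for 9.12% of all genes (17.1% in either direction).

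CALD1 was set beside genes of like base composition. At 41.6% GC, its longest transcript is the most AT-rich of the set. Over the 5000 tested genes with a transcript GC content above 35% and up to 45%, the median log2 deviation from the gene mean was 0.45, 0.12 and -0.14 in the TGF-β1 libraries (replicates 1 to 3), against -0.03, -0.33 and -0.01 in the control libraries. TGF-β1 replicate 1 was the highest and replicate 3 the lowest of its group in these genes and in CALD1 alike, and control replicate 2 was the lowest of the controls in both. The highest deviation was in a TGF-β1 library and the lowest in a control library, so trend and treatment cannot be fully told apart. Whether base composition set the level of CALD1 was not tested. With a smooth trend on GC content removed from each library, CALD1 had 185, 182 and 131 CPM with TGF-β1, against 94.7, 79.6 and 92.5 CPM in controls, a log2 difference of 0.90 ± 0.13 (SE) that passed (edgeR adjusted p = 0.00284). CALD1 passed as well with the replicate number as a block (edgeR adjusted p = 0.00259), a fit that called 3.64% of all genes, and with no filter on low counts (edgeR adjusted p = 3.61e-11), a fit that called 4.46%. CALD1 also passed without TGF-β1 replicate 1 (log2 difference 0.92, edgeR adjusted p = 1.14e-06) and without TGF-β1 replicate 3 (log2 difference 1.39, edgeR adjusted p = 0.00183), in fits that called 2.2% and 11.2% of all genes. It missed the threshold when any 1 of the other libraries was left out, with adjusted p up to 0.366. It lies on chromosome 7 from 134744252 to 134970728 (GRCh38, plus strand), with no exon base shared with another gene.

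**Figure D3:**
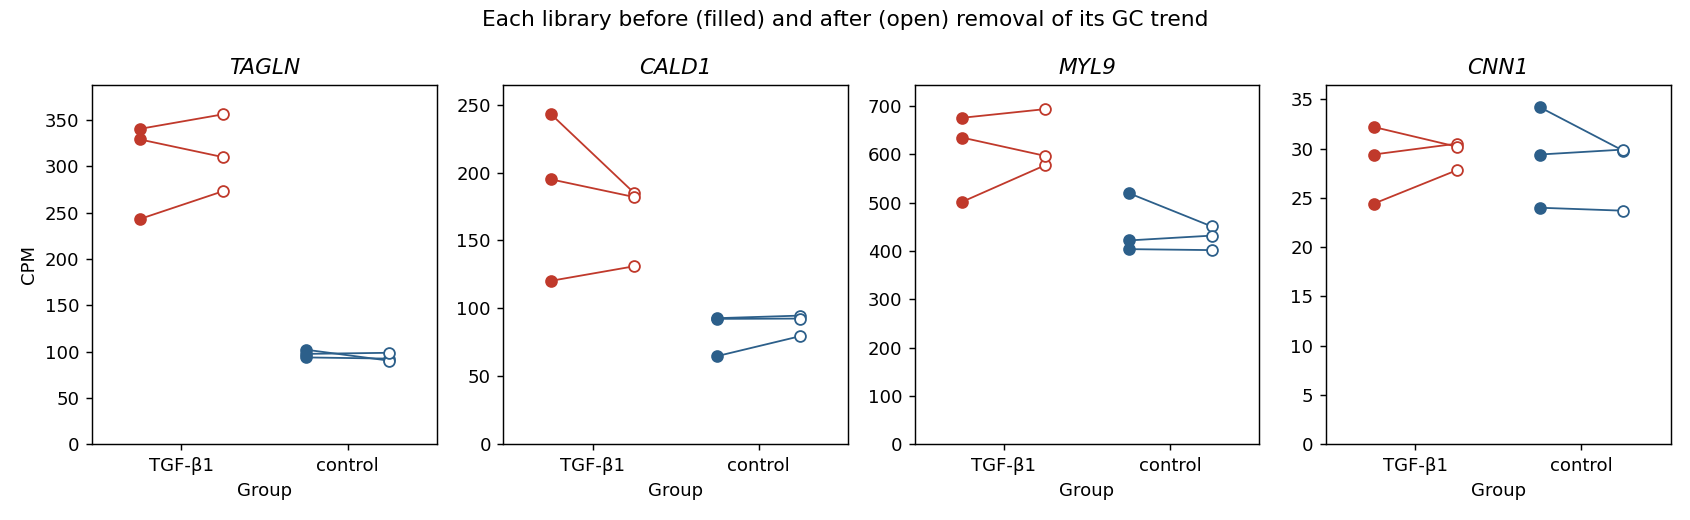
CPM of TAGLN, CALD1, MYL9 and CNN1 in the 3 TGF-β1 libraries at left and the 3 control libraries at right, as counted (filled) and with the GC trend of each library removed (open), joined by a line per library. TGF-β1 replicate 1 of CALD1 is at 185 CPM with the trend removed and at 243 CPM as counted, and the groups of MYL9, which overlapped as counted, separated.

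LMOD1 (ENSG00000163431), leiomodin 1, nucleates actin filaments in smooth muscle. It had 8, 1 and 3 counts in TGF-β1 replicates 1 to 3, against 6, 12 and 16 counts in control replicates 1 to 3, too few to pass the filter on low counts. A floor of 3 counts corresponds to 0.182 to 0.216 CPM in the TGF-β1 libraries and 0.17 to 0.212 CPM in the control libraries, which covers counting error only. The groups overlapped, with 2 TGF-β1 libraries at or under that floor. LMOD1 lies on chromosome 1 from 201896452 to 201946588, on the minus strand, and AL513217.1 covers 13.5% of its exon bases.

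SMTN (ENSG00000183963) encodes smoothelin, an actin-binding protein of contractile smooth muscle. It had 175, 203 and 232 CPM with TGF-β1, against 196, 232 and 196 CPM in controls, so that the control range lay within that of TGF-β1. For SMTN the log2 difference was -0.03 ± 0.14 (SE; 95% interval -0.34 to 0.27; edgeR adjusted p = 0.933). SMTN lies on chromosome 22 from 31064105 to 31104757, and AC005005.3 and AC005005.4 cover 4.3% of its exon bases.

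Myosin carries the force, and MYL9 encodes the regulatory light chain that the kinase phosphorylates. MYL9 (ENSG00000101335) had 8266, 11399 and 8633 counts in TGF-β1 replicates 1 to 3, against 5714, 8926 and 6927 counts in control replicates 1 to 3. In CPM these were 502, 676 and 635 with TGF-β1 and 404, 520.2 and 422 in controls. The groups met at TGF-β1 replicate 1, which was below control replicate 2. The log2 difference of 0.43 ± 0.15 (SE), with a 95% interval of 0.10 to 0.75, did not pass (edgeR adjusted p = 0.205). At 60.5% GC, MYL9 has the most GC-rich transcript of the set. Whether base composition set its level was not tested. Over the 3749 tested genes above 55% and up to 65% GC, the median log2 deviation was -0.21, -0.06 and 0.10 in the TGF-β1 libraries and 0.02, 0.21 and -0.03 in the control libraries, lowest in TGF-β1 replicate 1 and highest in control replicate 2, the pair at which the groups of MYL9 met. With the GC trend removed its levels were 578, 694 and 597 CPM with TGF-β1, against 402, 451 and 432 CPM in controls, and the log2 difference of 0.54 ± 0.09 (SE) passed (edgeR adjusted p = 0.00949). In that fit TAGLN, CALD1 and MYL9 rose and 0 of the 9 genes fell, with 1.55% of all genes called higher and 1.53% lower, and the median over the 9 genes was 0.10. The groups of TAGLN, CALD1, MYL9 and MYH11 then did not overlap, TGF-β1 being higher, against 11.0% of all genes higher and 13.1% lower. MYL9 also passed without TGF-β1 replicate 1 (log2 difference 0.54, edgeR adjusted p = 0.00995), a fit that called 2.2% of all genes. It was called in 3 of the 19 settings, and its adjusted p was 0.0632 to 0.507 in the others, which include the fits without each of the other libraries. MYL9 lies on chromosome 20 from 36541484 to 36551447 and shares no exon base with another gene.

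**Figure D4:**
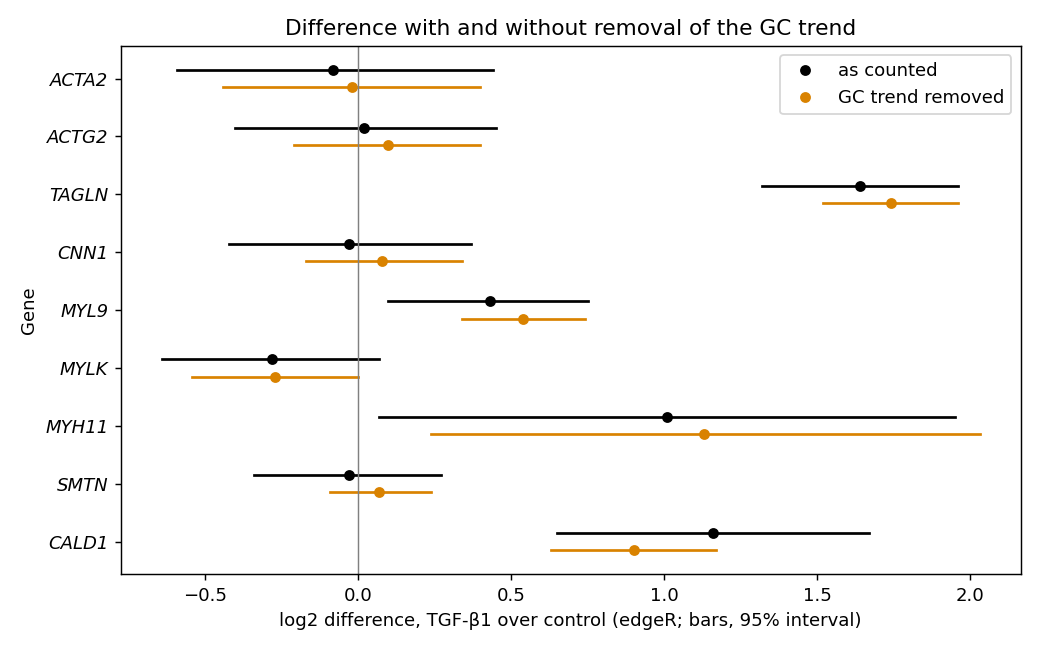
Log2 difference of TGF-β1 over control for the 9 tested genes, with 95% intervals from edgeR, as counted (black) and with the GC trend removed (orange). The interval of TAGLN lies above 1 on the log2 scale in both fits, and those of ACTA2, ACTG2, CNN1 and SMTN include 0 in both.

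MYL9 was the most abundant gene of the set per length, at 216 ± 33.3 FPKM with TGF-β1 and 158 ± 18.8 FPKM in controls (SD, n = 3 each). It took 35.5%, 40% and 43.9% of the FPKM of MYL9, MYL12A and MYL12B, the 3 regulatory light chains, with TGF-β1, against 30.4%, 39.6% and 32.5% in controls (exact permutation p = 0.2, two-sided). MYL12B, found in most cell types, had a log2 difference of 0.14 ± 0.13 (SE, edgeR adjusted p = 0.637).

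MYH11 (ENSG00000133392), the smooth muscle myosin heavy chain, had 45, 25 and 25 counts in TGF-β1 replicates 1 to 3, against 14, 27 and 7 counts in control replicates 1 to 3. At 2.73, 1.48 and 1.84 CPM with TGF-β1 and 0.99, 1.57 and 0.427 CPM in controls, the groups overlapped through control replicate 2. The log2 difference of 1.01 ± 0.43 (SE), with a 95% interval of 0.07 to 1.95, did not pass (edgeR adjusted p = 0.285), and it ranged from 0.63 to 1.5 with 1 library left out. MYH11 lies on chromosome 16 from 15703172 to 15857033, with NDE1 and other plus-strand genes over 8.1% of its exon bases. Of the FPKM of 4 myosin II heavy chains it took 0.0329% ± 0.0121 with TGF-β1 and 0.0141% ± 0.0074 in controls (SD, n = 3 each; exact permutation p = 0.1, two-sided, the smallest possible), and the non-muscle chain MYH9 held most of the rest, at 327 ± 25.1 FPKM with TGF-β1 and 368 ± 22.7 FPKM in controls.

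MYLK (ENSG00000065534), the kinase of the light chain, had 201, 135 and 183 CPM with TGF-β1, against 198, 191 and 242 CPM in controls. TGF-β1 replicates 2 and 3 lay below all controls, replicate 2 being the lowest of all 6 libraries, and TGF-β1 replicate 1 lay within the controls. The kinase gene's log2 difference was -0.28 ± 0.16 (SE; 95% interval -0.64 to 0.07; edgeR adjusted p = 0.435). Counts of the gene join the kinase forms with telokin, a short product of its 3′ end that has no kinase domain.

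In order of deposited FPKM averaged over the 6 libraries, the genes were MYL9 at 187, TAGLN at 30.7, SMTN at 20.0, CALD1 at 13.8, CNN1 at 10.2, MYLK at 8.64, ACTG2 at 3.46, ACTA2 at 1.64, LMOD1 at 0.12 and MYH11 at 0.0849. The order differed between the groups at TAGLN, CALD1 and the lowest pair. With TGF-β1, TAGLN had 37.5 to 53.2 FPKM and stood above SMTN at 17.3 to 22.2 FPKM in every library, whereas in controls TAGLN had 14.3 to 15.1 FPKM and stood below SMTN at 19.2 to 21.9 FPKM in every library. CALD1, CNN1 and MYLK overlapped each other in controls, as did CALD1 and SMTN with TGF-β1. These positions depend on the deposited gene lengths.

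**Figure D5:**
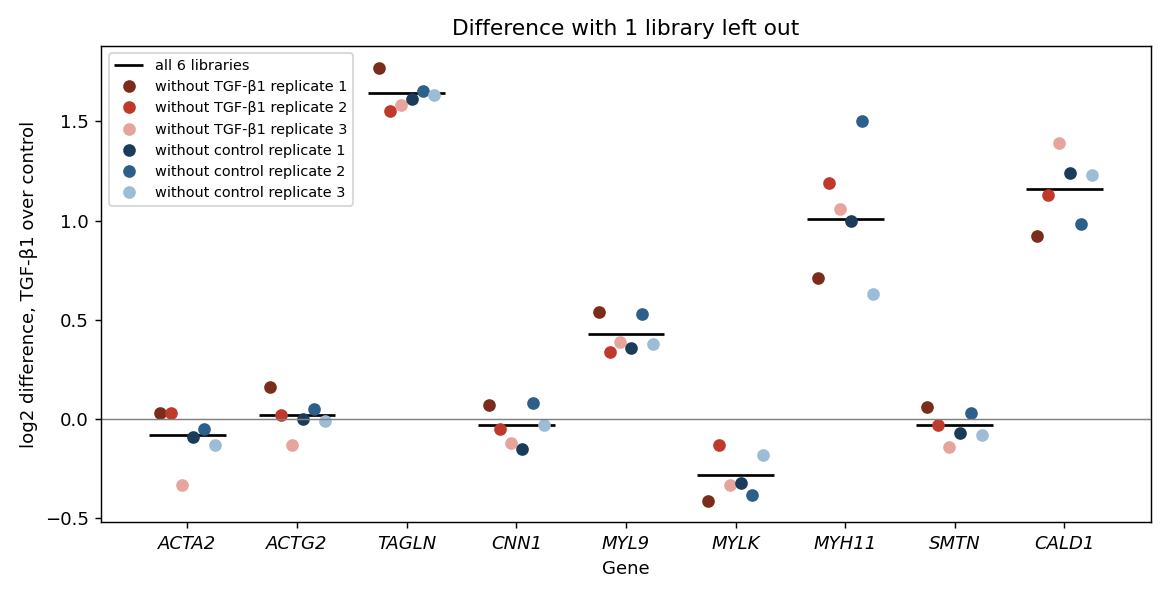
Log2 difference of TGF-β1 over control for the 9 tested genes with all 6 libraries (line) and with each library left out in turn (points). TAGLN stays between 1.55 and 1.77, and ACTA2, ACTG2, CNN1 and SMTN lie on both sides of 0.

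Other genes of the contractile system were read from lists of paralogs, further smooth muscle genes, SRF and its cofactors, and the enzymes that set myosin phosphorylation. Tropomyosins are in none of these lists. Of the listed genes, 74 were in the table and 64 were tested. Here edgeR called 0 higher and 1 lower, 10 were higher and 4 lower at an unadjusted p under 0.05, and DESeq2 called 5 higher and 1 lower. Over all genes edgeR called 0.187% higher and 0.18% lower, 11.1% were higher and 4.49% lower at an unadjusted p under 0.05, and DESeq2 called 3.41% higher and 0.844% lower. The 64 listed genes had a median log2 difference of -0.05. Groups did not overlap in 6 of them with TGF-β1 higher and in 8 with TGF-β1 lower. Over all genes tested this held for 7.93% and 9.12%. The gene that fell was FHL2, for which a box is printed above: it had 62.6, 74.7 and 74.0 CPM with TGF-β1, against 116, 122 and 127 CPM in controls, and the groups did not overlap. Its log2 difference was -0.79 ± 0.13 (SE), 1.73-fold lower (edgeR adjusted p = 0.0261), and -0.80 ± 0.10 with the GC trend removed (edgeR adjusted p = 0.00156). The call of FHL2 was lost when TGF-β1 replicate 2 or any 1 control library was left out, with log2 differences of -0.83 to -0.77 there and adjusted p up to 0.212.

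SRF itself had 98.6 ± 5.37 CPM with TGF-β1 and 111 ± 9.44 CPM in controls (SD, n = 3 each; edgeR adjusted p = 0.537). The groups of SRF did not overlap, with TGF-β1 lower. Its cofactor genes MRTFA, MRTFB and MYOCD had log2 differences of -0.10 ± 0.15, 0.52 ± 0.24 and 0.13 ± 0.26 (SE; edgeR adjusted p = 0.795, 0.33 and 0.847). By mean FPKM the leading genes of that list were ELK1, FOXF1 and ELK3. ELK1 had a log2 difference of -0.17 ± 0.13 (SE) and FOXF1 one of 0.01 ± 0.12 (SE), and neither passed (edgeR adjusted p = 0.578 and 0.975). ELK3, an ETS factor that binds beside SRF, had 176, 145 and 101 CPM with TGF-β1, against 95.2, 73.1 and 101 CPM in controls (edgeR adjusted p = 0.171). With the GC trend removed it passed (edgeR adjusted p = 0.0427), in a fit that called 3.08% of all genes. With the replicate block added it did not (edgeR adjusted p = 0.0686), and ELK3 was called in 4 of the 19 settings.

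The kinases ROCK1 and ROCK2 inhibit myosin phosphatase and so keep the light chain phosphorylated. ROCK1 had 80.5, 55.1 and 37.3 CPM with TGF-β1, against 25.9, 26.2 and 32.6 CPM in controls, and ROCK2 had 50.4, 29.8 and 21.7 CPM with TGF-β1, against 15.8, 12.6 and 18.4 CPM in controls. In neither gene did the groups overlap, and in both genes TGF-β1 replicate 1 was the highest and replicate 3 the lowest of its group, as for CALD1. Their log2 differences of 1.03 ± 0.24 and 1.13 ± 0.28 (SE) did not pass (edgeR adjusted p = 0.111 and 0.124), though each gene was called in 7 of the 19 settings. With the GC trend removed they were 0.69 ± 0.13 and 0.76 ± 0.15 (SE) and passed (edgeR adjusted p = 0.0185 and 0.0201), in a fit that called 3.08% of all genes. The most abundant genes of that list, RHOA, PPP1R14B and RHOB, had log2 differences of -0.25 ± 0.12, 0.25 ± 0.17 and -0.37 ± 0.13 (SE; edgeR adjusted p = 0.354, 0.528 and 0.205). The groups of RHOA and RHOB did not overlap either, with TGF-β1 lower in both genes. FLNA, HSPB1 and ACTN1, the most abundant of the further smooth muscle genes, had log2 differences of -0.31, 0.10 and -0.17, and none passed (edgeR adjusted p = 0.32, 0.802 and 0.548).

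The genes whose pattern over the 6 libraries was most like that of 3 members were found among 10642 other named genes of at least 5 mean CPM, as the smallest root mean square difference of log2 deviations from the gene mean. TAGLN was nearest to TGFBI, a secreted matrix protein, at 0.103. LTBP2, of the latent TGF-β binding protein family, followed at 0.203 and MMP2, gelatinase A, at 0.212. TGFBI had 3190.5 ± 305 CPM with TGF-β1 and 952 ± 51.6 CPM in controls, LTBP2 had 59.6 ± 2.26 CPM with TGF-β1 and 23.4 ± 2.91 CPM in controls, and MMP2 had 146 ± 14.1 CPM with TGF-β1 and 59.3 ± 9.37 CPM in controls (SD, n = 3 each). CNN1 was nearest to KCTD17 at 0.0411, TPRN at 0.0443 and PKN3 at 0.0445, and among the genes nearest to ACTA2 were DNAAF5 at 0.0503 and CNNM4 at 0.0525. These genes near CNN1 and ACTA2 had log2 differences of -0.11 to 0.01, and none of them passed the edgeR test. Since all of these genes were chosen on the same 6 libraries, a group difference close to that of the member follows from the choice.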

How the data were processed

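Counts and FPKM per gene were taken from 1 deposited table of 6 libraries. Per the file headers, 6 columns hold read counts, deposited by the authors without normalization, and 6 hold FPKM values made by the authors. These FPKM followed from the counts with 1 whole-number length per gene, within 0.01, for all 27830 genes. The submitters' processing notes name HISAT2, HTSeq 0.13.5 and GRCh38, with no role or order. The library kit, per the labels' protocols, was NEBNext Ultra RNA. The annotation release and RNA selection were not given in the sources used. Ensembl identifiers were matched to GENCODE release 29 (26980 genes) for coordinates, exon overlap and GC content of the longest transcript. Promoter windows and their sequences are from RefSeq on GRCh38.p14.

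Counts were tested with edgeR 4.0.16 (R 4.3.3): quasi-likelihood F test, robust fitting, TMM scaling, filterByExpr, and Benjamini-Hochberg adjustment over the 14463 genes kept, with calls at an adjusted p under 0.05. SE and 95% intervals follow from the F statistic. Alternatives were other scaling factors, no filter, at least 1 CPM in 3 libraries, the replicate number as a block, each library left out, DESeq2 1.42.0, limma 3.58.1 (voom, and log2 of FPKM with 1 or 0.1 added), and a loess trend on GC content (span 0.5) removed from each library. The edgeR fits were tested on simulated data. Libraries of a group differed by more than counting noise (chi-square 5.21 to 45.7 per degree of freedom), so none was treated as a duplicate. The members, the gene lists and the GC alternative were chosen with earlier results of these data known. Named were all members, the called genes and 3 most abundant genes of each list, and the nearest patterns of TAGLN, CNN1 and ACTA2. One gene that this rule names is not reported here. ROCK1, ROCK2, SRF, MRTFA, MRTFB, MYOCD and the other paralogs were named after their values were seen.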

Additional observations from a re-analysis of the deposited data

How the results depend on the processing

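TAGLN was called in 19 of 19 settings (log2 difference 1.55 to 1.77), and no member was called lower in any. The count of members called, 1 in the first test and all higher, was 2 with upper quartile factors, no filter and DESeq2 (CALD1 as well) and 3 with the GC trend removed (CALD1 and MYL9). Leaving out 1 library gave 1 to 3. Over all genes, 53 calls became 111 with upper quartile factors, 1240 with no filter, 615 with DESeq2, 446 with the GC trend removed, and 4 to 1671 with 1 library left out: 324, 4 and 1671 without TGF-β1 replicates 1, 2 and 3, and 13 and 15 without control replicates 1 and 3. Of the pathway lists, 1 call became 9 with no filter, 6 with DESeq2, 4 with the GC trend removed and 0 to 14 with 1 library left out: 4, 0 and 14 without TGF-β1 replicates 1, 2 and 3, and 0 without each control. With the GC trend removed, leaving out 1 library kept CALD1 called in each of 6 fits, whereas MYL9 lost its call without TGF-β1 replicate 2 or control replicate 1. The causes were not tested.

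With a block for replicate number there were 2 members called (CALD1 as well), 527 genes in all and 5 of the pathway lists, and with the GC trend removed 3, 287 and 3. Deviations of same-numbered libraries correlated at 0.176, 0.1 and -0.355, and at -0.00247, 0.0841 and -0.18 with the GC trend removed. The labels state no pairing, and whether same-numbered libraries shared a batch cannot be told from these values.

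Among members not called, some changed sign. ACTG2 was at -0.0039 with upper quartile factors and -0.00034 with limma voom, CNN1 at 0.08 with the GC trend removed and 0.09 with the block too, and SMTN at 0.07 in both. With 1 library left out, ACTA2 ranged from -0.33 to 0.03, ACTG2 from -0.13 to 0.16, CNN1 from -0.15 to 0.08 and SMTN from -0.14 to 0.06. LMOD1, with at most 16 counts, and MYH11, with at most 45, are limited by depth.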
